A study of Mus musculus with 4 samples.

Results

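The complement genes C3, C4b, Cfb, C1ra, C1s1, C1s2 and Serping1 were followed across 4 single-cell RNA libraries of mouse testis and across the cell types in them. These 7 genes were chosen by symbol, with earlier results of the same data known, out of 31053 features in the deposited count matrices. Because the choice drew on those results, the levels below are a description and carry no test.

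Complement is a cascade of secreted proteases and opsonins, best known from plasma, where most of its proteins come from the liver. Binding of the C1 complex to a target activates the proteases C1r and C1s, C1s cleaves C4 and C2, and the product cleaves C3, the protein on which all routes of the cascade meet. Factor B joins cleaved C3 in the alternative pathway, which amplifies the deposit, and C1 inhibitor blocks C1r and C1s. Fibroblasts and other stromal cells make several of these proteins, and many of the genes are known to respond to inflammatory cytokines.

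All 4 libraries came from testes of the strain labelled Acr-Gfp tg mouse (C57BL/6), a C57BL/6 line with a green fluorescent reporter under the promoter of the germ cell gene Acr, so every group carried the transgene; there was 1 library in each group, and the number of animals pooled in it is not given in the sources used here. In both cultured groups the testes were taken 7 days postpartum (dpp), opened, cut into fragments and laid on agarose beneath a PDMS ceiling, fed with α-MEM that contained AlbuMAX, for 2 days or for 7 days. The other groups were testes at 9 dpp and at 14 dpp, which their titles do not describe as cultured, although the culture text is repeated on their labels. The 2-day culture therefore had the same total age as the 9 dpp testis, and the 7-day culture the same as the 14 dpp testis. Cells were released with collagenase I and trypsin and sequenced as 3′ tags with molecular identifiers (UMIs).

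After filtering, the cultures kept 6877 cells (2 days) and 4816 cells (7 days) and the testes 5150 (9 dpp) and 6195 (14 dpp), with 32078508, 37117012, 57585867 and 56210929 UMIs. The median depth was 3606, 5577.5, 8544.5 and 6447 UMIs per cell in the same order. Pairs of libraries shared 29 to 75 cell barcodes, 0.602% to 1.26% of the smaller library. The markers of testis cell types were present: germ-like cells numbered 2854, 2550, 2524 and 3710, and Sertoli-like cells 1175, 530, 825 and 813. Levels below are CPM, UMIs of a gene summed over cells and scaled to the total UMIs of those cells, with exact 95% Poisson intervals in parentheses; folds have exact binomial 95% intervals. All intervals cover counting error only, so no difference below was compared with the spread between animals or cultures.

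On GRCm38 the genes fall on 3 chromosomes. C1ra (ENSMUSG00000055172, chr6:124512405-124523443) and the protease genes C1s1 (ENSMUSG00000038521, chr6:124530345-124542359) and C1s2 (ENSMUSG00000079343, chr6:124624625-124636085) form a cluster on chromosome 6, with C1rb (ENSMUSG00000098470) between C1s1 and C1s2. C4b (ENSMUSG00000073418, chr17:34728380-34743882) and Cfb (ENSMUSG00000090231, chr17:34856374-34862518) are on chromosome 17 with C4a between them, C3 (ENSMUSG00000024164, chr17:57203970-57228136) is farther along it, and Serping1 (ENSMUSG00000023224, chr2:84765387-84775444) is on chromosome 2.

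Promoter sequences of RefSeq (GRCm38.p6) were found for 4 of the 7 genes, and 3 of them are shown because they belong to C3, which had the largest whole-library difference of the 7 genes on the log2(CPM + 1) scale in both pairs, and to the pair of C1s genes that moved in opposite directions. Each is read 5′ to 3′ on the minus strand and ends before the start site, at chr17:57228137-57228386 for C3, chr6:124542393-124542609 for C1s1 and chr6:124636086-124636335 for C1s2. Capitals mark matches on either strand to a C/EBP-type motif TTNNGNAA or an NF-kB-type motif GGGANNNNCC.
C3: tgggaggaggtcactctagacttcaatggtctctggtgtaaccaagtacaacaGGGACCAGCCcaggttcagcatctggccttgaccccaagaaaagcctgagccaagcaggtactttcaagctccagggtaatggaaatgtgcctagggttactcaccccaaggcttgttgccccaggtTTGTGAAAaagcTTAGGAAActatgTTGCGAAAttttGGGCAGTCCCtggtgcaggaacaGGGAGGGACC
C1s1: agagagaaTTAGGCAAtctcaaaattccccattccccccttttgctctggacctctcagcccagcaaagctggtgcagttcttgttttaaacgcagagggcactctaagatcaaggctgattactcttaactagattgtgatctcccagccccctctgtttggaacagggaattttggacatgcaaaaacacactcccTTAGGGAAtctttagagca
C1s2: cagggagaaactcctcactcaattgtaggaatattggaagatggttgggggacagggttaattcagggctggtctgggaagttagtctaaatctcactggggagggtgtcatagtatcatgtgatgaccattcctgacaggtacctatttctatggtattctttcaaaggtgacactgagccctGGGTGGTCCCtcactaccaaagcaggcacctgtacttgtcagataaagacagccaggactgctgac
C3 held 4 matches to the C/EBP-type motif at 3 positions, 70 to 63, 58 to 51 and 45 to 38 bases before the start (the last on both strands), and 3 matches to the NF-kB-type motif, 197 to 188, 33 to 24 and 10 to 1 bases before it. The C1s1 window held 2 C/EBP-type matches, 242 to 235 and 52 to 45 bases before the start, and none of the NF-kB type. The C1s2 window held a single NF-kB-type match, 66 to 57 bases before the start. Neither TTCNNNGAA (STAT-type), GAAANNGAAA (ISRE-type), TGANTCA (AP-1-type) nor TATAAA was present in these 3 windows. The same motifs are common: 36.8% of RefSeq promoter windows of 250 bases hold the C/EBP-type motif and 17.6% the NF-kB-type motif, and 34% and 15.3% of windows of 217 bases, the length of the C1s1 window. A match is a stretch of letters and not a binding site.

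Summed over all cells, 6 of the 7 genes were higher in culture than in the testis of the same total age, in both pairs, and C1s2 was lower. The initiating proteases of the classical pathway come first. C1s1, which encodes C1s, stood at 240 CPM (235–245) after 2 days of culture, 102 (99.1–106) after 7 days, 38.9 (37.3–40.5) at 9 dpp and 33.3 (31.8–34.9) at 14 dpp. Both cultures lay above both testes, by 6.17-fold (5.89–6.47) and 3.07-fold (2.90–3.25) within the pairs. C1ra, the partner protease C1r, had the same order, with 150 CPM (145–154), 51.1 (48.9–53.5), 19.8 (18.7–21.0) and 11.2 (10.3–12.1), or 7.53-fold (7.06–8.04) and 4.56-fold (4.17–5.0). C1s2, the close relative of C1s1, went the other way: 0.998 CPM (0.682–1.41) after 2 days of culture, 0.189 (0.0758–0.389) after 7 days, 4.90 (4.34–5.50) at 9 dpp and 3.66 (3.18–4.2) at 14 dpp. It was 4.91-fold (3.40–7.32) and 19.4-fold (9.26–48.9) lower in culture.

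C4b, the C4 protein that C1s cleaves, gave few UMIs in every library. It reached 6.76 CPM (5.89–7.73) in the 2-day culture and 9.24 (8.29–10.3) in the 7-day culture, against 1.04 (0.795–1.34) at 9 dpp and 0.783 (0.569–1.05) at 14 dpp. The folds were 6.49 (4.86–8.79) and 11.8 (8.61–16.5).

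C3 was close to absent from the testis libraries, with 25 UMIs at 9 dpp and 27 at 14 dpp, or 0.434 CPM (0.281–0.641) and 0.480 (0.317–0.699). The 2-day culture held 3201 UMIs, 99.8 CPM (96.4–103), and the 7-day culture 3262 UMIs, 87.9 CPM (84.9–91). The folds were 230 (155–356) and 183 (126–278). Cfb, factor B, gave 912 UMIs after 2 days of culture, 28.4 CPM (26.6–30.3), and 52 after 7 days, 1.40 CPM (1.05–1.84), but 2 and 1 at 9 and 14 dpp. Its fold is therefore poorly bounded, at 819 (226–6.77e3) after 2 days and 78.8 (13.5–3.17e3) after 7 days. The C3 level after 7 days was 0.881-fold that after 2 days, while Cfb was 20.3-fold (15.3–27.4) lower in the later one.

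Serping1, which encodes C1 inhibitor, gave the most UMIs of the 7 in every library (3′ tag counts do not scale with transcript length). It stood at 548 CPM (540–556), 205 (200–209), 98.7 (96.1–101) and 80.0 (77.7–82.4) in the cultures of 2 and 7 days and the testes of 9 and 14 dpp. The folds were 5.55 (5.39–5.72) and 2.56 (2.47–2.65). Over the whole library both are below the folds of C1s1 and C1ra, whose products it inhibits. This order did not hold in the stromal- or myoid-like cells described below, where the 2-day fold of Serping1 was above that of C1s1.

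**Figure D1:**
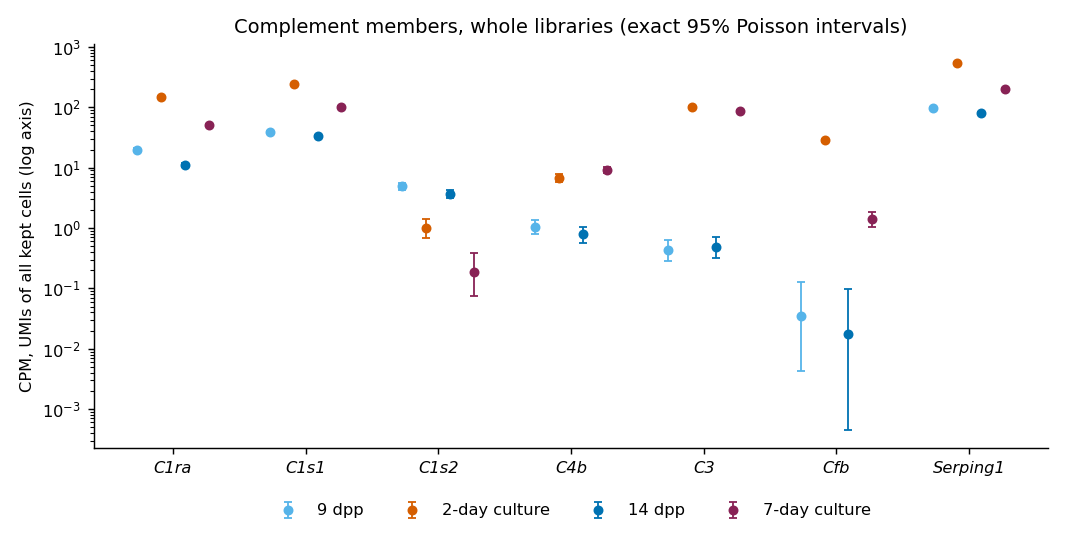
CPM of UMIs summed over all kept cells (log axis) for the 7 complement genes in the 4 libraries, with exact 95% Poisson intervals. In both cultures C1ra, C1s1, C4b, C3, Cfb and Serping1 sit above both testis libraries, and C1s2 sits below them.

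For setting these genes against all others, a gene counted as higher or lower when log2(CPM + 1) differed by at least 1, among the 16616 genes whose UMIs in all 4 libraries together reached 50. In the 2-day pair 4.19% of genes were higher in culture and 3.41% lower, and in the 7-day pair 3.6% were higher and 2.67% lower. The 7 genes gave 6 higher and 1 lower in each, which repeats what they were chosen for. The median log2 difference was 2.60 over the 7 genes and -0.12 over all genes in the 2-day pair, and 1.59 against 0.00 in the 7-day pair. C3 ranked 9th from the highest in the 2-day pair and 3rd in the 7-day pair. Between 9 and 14 dpp none of the 7 passed the same threshold, where 4.09% of genes were higher at 14 dpp and 1.97% lower. Between the cultures 4 were lower after 7 days, Cfb, C1ra, C1s1 and Serping1, where 2.37% of all genes were lower, and none was higher, where 4.52% were.

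Levels over a whole library mix the share of each cell type with its RNA, and fewer cells of a type and less RNA per cell cannot be told apart there. Stromal- or myoid-like cells, set by UMIs of connective tissue or smooth muscle markers, made up 35.7% of kept cells after 2 days of culture, 30.9% after 7 days, 29.0% at 9 dpp and 17.4% at 14 dpp. In the 2-day and 7-day culture they held 79.4% and 91.1% of the C3 UMIs, 91% and 86.5% of those of Cfb, 83.3% and 82.0% of C1ra, and 92.9% and 91.5% of Serping1. For C1s1 they held 59.5% and 76.6%, and for C1s2 21 of 32 and 4 of 7 UMIs. C4b differed, with 47.5% after 2 days, when Sertoli-like cells held 37.8%, and 84.8% after 7 days. In the testis they held 87.1% and 81.8% of the Serping1 UMIs but only 2 of the 25 C3 UMIs at 9 dpp and 0 of the 27 at 14 dpp. Germ-like cells held 22 and 19 of those few C3 UMIs.

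Within the stromal- or myoid-like cells the comparison was repeated on 2455, 1489, 1493 and 1078 cells from the cultures of 2 and 7 days and the testes of 9 and 14 dpp. Their collagen and decorin-type markers summed to 11915, 12126, 10013 and 10718 CPM, while the smooth muscle markers (Acta2, Myh11, Tagln, Cnn1, Actg2 and Des) summed to 2849, 4439, 7686 and 10409 CPM, lower in culture. The 10 macrophage markers summed to 6.50, 5.41, 4.79 and 6.84 CPM in these cells. Different clusters held the class in culture and in the testis: clusters led by Igfbp5 and Plcxd3, by Cxcl5 and Spp1, and by Apoe and Agt in culture, and clusters led by Tnnt2 and Myh11 or by Clec3b and Tppp3 in the testis. The part of that shift in the values below was not tested.

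C1s1 in these cells stood at 431 CPM (419–444) after 2 days of culture, 425 (410–441) after 7 days, 181 (172–190) at 9 dpp and 270 (256–286) at 14 dpp. The 7-day level was 0.986-fold (0.941–1.03) the 2-day level, and the 14 dpp level was 1.49-fold (1.39–1.61) the 9 dpp level. The cultures were therefore 2.38-fold (2.25–2.52) higher in the 2-day pair and 1.57-fold (1.47–1.68) in the 7-day pair. C1ra was at 376 CPM (365–388), 228 (216–239), 75.6 (70.1–81.4) and 86.4 (78.2–95.2), which is 4.98-fold (4.59–5.40) and 2.64-fold (2.36–2.95) higher in culture. C1s2 was at 1.98 CPM (1.22–3.02) and 0.585 (0.159–1.50) in the cultures against 22.8 (19.9–26.2) and 25.9 (21.5–30.9) in the testes. Those differences were 11.5-fold (7.36–19.0) and 44.2-fold (16.8–165), larger than over the whole library. C1s1 and C1s2 thus differed in opposite directions within this class, and the ratio of their UMIs went from 1664 to 210 at 9 dpp to 4578 to 21 in the 2-day culture. The last 500 bases of the 2 transcripts share 2.44% of their 91-base windows, so few reads from their 3′ ends could come from either. C1ra is less separable from its relative C1rb, with 11% of windows shared, and C4b from C4a, with 19.8%; C4a was not among the features.

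C4b gave 103 UMIs in the stromal- or myoid-like cells of the 2-day culture, 9.70 CPM (7.92–11.8), and 291 in those of the 7-day culture, 42.6 CPM (37.8–47.8), against 3 at 9 dpp and 6 at 14 dpp. It was the one gene of the 7 that was called higher in the later culture than in the earlier one, by 4.39-fold (3.49–5.55), where 3.37% of all genes in these cells were called higher; Cfb was the one called lower, where 3.65% were. Against the testis its folds were 29.7 (9.89–147) and 33.2 (15.1–91.2).

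C3 reached 239 CPM (230–249) in the 2-day culture and 435 (419–451) in the 7-day culture, from 2542 and 2972 UMIs. The same cells of the testis held 2 UMIs at 9 dpp and 0 at 14 dpp. The fold was 1101 (304–9.09e3) in the 2-day pair and at least 678 in the 7-day pair, from a floor of 3 UMIs. Cfb reached 78.2 CPM (73.0–83.7) and 6.58 (4.80–8.81) in the cultures, against 2 and 0 UMIs in the testes. It was 359-fold (99.2–2.97e3) higher in the 2-day pair and at least 10.3-fold higher in the 7-day pair, and 11.9-fold (8.80–16.4) lower in the later culture than in the earlier. C3 was 1.82-fold (1.72–1.91) higher after 7 days than after 2 in the class as a whole, but this turned by kind of cell: it was 2.10-fold higher in cells with more Dcn than Acta2 UMIs and 0.843-fold (0.732–0.969) in those with more Acta2.

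Serping1 stood at 1538, 1017, 538 (524–554) and 786 (761–812) CPM. It was 2.86-fold (2.77–2.95) higher in culture in the 2-day pair, above the fold of C1s1 and below that of C1ra. In the 7-day pair it was 1.29-fold (1.24–1.35) higher, the smallest difference of the 7 genes there.

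With the same threshold among 12097 genes of these cells, 6 of the 7 were called higher in the 2-day pair, where 5.93% of all genes were, and C1s2 was called lower, where 7.09% were. Of the 6, C1s1 was under the threshold in cells led by Dcn (0.85 on the log2 scale) and C4b with 10 added to CPM (0.93). In the 7-day pair 4 were called higher (C3, C4b, Cfb and C1ra), where 5.19% were (C1ra was under the threshold in cells led by Dcn, described below, at 1.88-fold), and C1s2 lower, where 4.63% were. The median log2 difference of the 7 was 2.30 and 1.39, against -0.18 and -0.02 over all genes. Between 9 and 14 dpp none was called in either direction, where 2.12% of genes were higher and 3.13% lower.

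**Figure D2:**
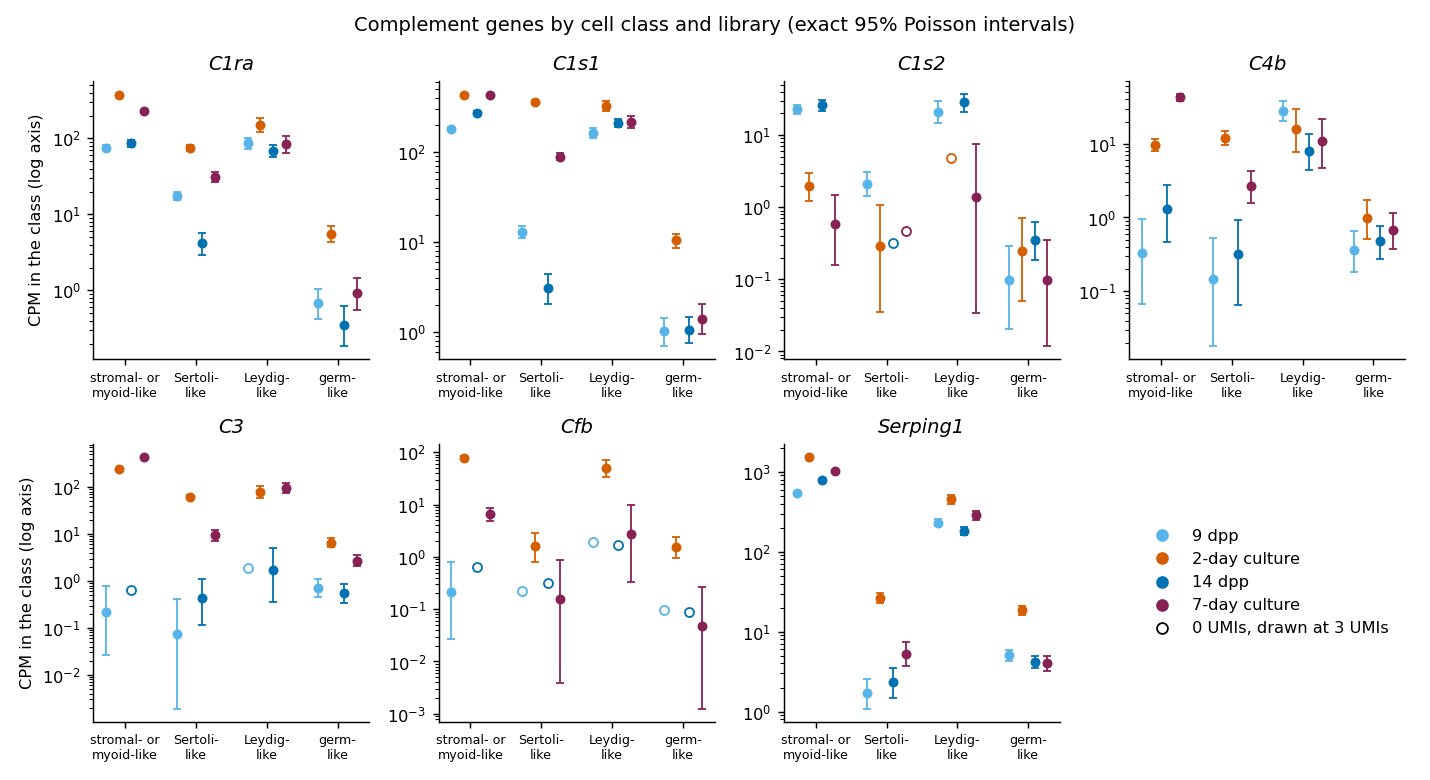
CPM (log axis) of the 7 genes in UMIs summed by cell class, in the 4 libraries, with exact 95% Poisson intervals; open circles mark 0 UMIs and are drawn at 3 UMIs. C3, Cfb and C4b rest on 0 to 6 UMIs in stromal- or myoid-like cells of the testes and are far higher in culture, and C1s1 in Sertoli-like cells spans 3.09 to 362 CPM.

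The class holds cells that lean to smooth muscle and cells that lean to connective tissue. It was divided, after the data had been seen, by whether a cell held more UMIs of Acta2 (smooth muscle actin) or of Dcn (decorin), which gave 1023 and 1388 cells after 2 days of culture, 615 and 862 after 7 days, 765 and 725 at 9 dpp, and 644 and 432 at 14 dpp. C3 was present in both kinds of cultured cell. In Acta2-led cells it was at 157 and 132 CPM in the cultures and in Dcn-led cells at 284 and 596 CPM, so the Dcn-led level was 1.81-fold (1.65–1.99) and 4.51-fold (4.01–5.09) the other. In the testis it was at 0.220 and 0 CPM in Acta2-led cells and at 0.216 and 0 in Dcn-led cells.

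C4b and Cfb leaned further to the Dcn-led cells, by 6.37-fold (3.11–15.2) and 2.47-fold (2.07–2.97) after 2 days and by 7.62-fold (4.79–12.9) and 7.45-fold (2.38–37.6) after 7 days. C1ra, C1s1 and Serping1 differed less between the 2 kinds of cell in culture than in the testis, and so did some smooth muscle markers. Des differed more in culture, at 71.4, 70.6, 97.5 and 159 CPM in Acta2-led cells and 28.0, 26.4, 76.8 and 127 in Dcn-led cells. Acta2-led cells with Acta2 UMIs under 2-fold their Dcn UMIs numbered 112, 55, 17 and 11 in the same order. Dcn-led cells as near the line numbered 85, 53, 20 and 6. Cnn1 in Acta2-led cells was at 55.9, 281, 357 and 405 CPM (2-day and 7-day culture, then 9 and 14 dpp), and Tagln in Dcn-led cells at 191, 84.7, 4.96 and 7.56 CPM; their part in the values that follow was not tested. C1ra was 1.10-fold and 1.59-fold higher in Dcn-led cells of the cultures against 2.66-fold and 2.89-fold in those of the testes, and C1s1 1.05-fold and 1.43-fold against 2.04-fold and 1.88-fold. Serping1 showed 1.06-fold and 1.14-fold in culture against 1.41-fold and 2.14-fold (2.00–2.29) in the testis. In the 2-day pair C1ra was 8.59-fold (7.37–10.1) higher in culture in Acta2-led cells and 3.57-fold (3.24–3.93) in Dcn-led cells. For Serping1 the 7-day comparison differed by kind of cell: it was 1.75-fold (1.64–1.87) higher in culture in Acta2-led cells and 0.937-fold in Dcn-led cells, where the direction was the opposite. C1s2 was 2.19-fold (1.62–2.98) and 1.63-fold (1.12–2.37) higher in Dcn-led cells of the testes, and 3.26-fold (0.950–17.3) and 1.60-fold (0.128–83.9) in those of the cultures, where the intervals include no difference.

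**Figure D3:**
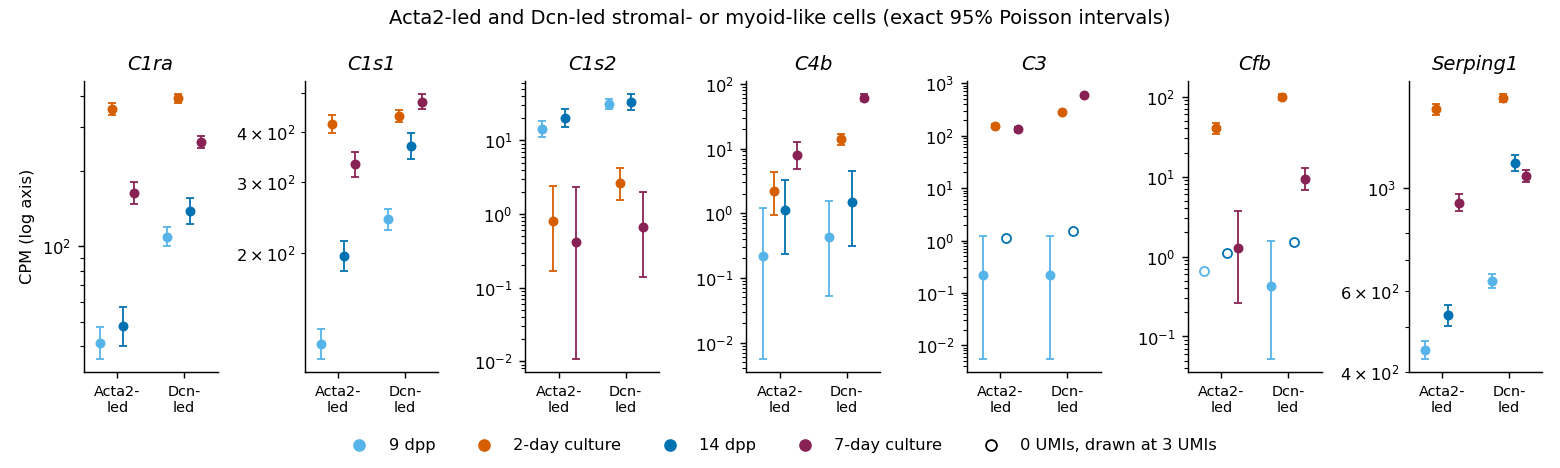
CPM (log axis) of the 7 genes in stromal- or myoid-like cells with more UMIs of Acta2 and in those with more UMIs of Dcn, in the 4 libraries, with exact 95% Poisson intervals; open circles mark 0 UMIs and are drawn at 3 UMIs. C3 is present in both kinds of cultured cell, with its highest level, 596 CPM, in Dcn-led cells of the 7-day culture.

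By cluster, C3 in the 2-day culture was at 228 CPM in the cells led by Igfbp5 and at 248 CPM in the cells led by Cxcl5 and Spp1, which also carried the chemokine genes Ccl2 and Ccl5 among their leading genes. In the 7-day culture the cluster led by Apoe and Agt (740 cells) held 75.1% of the C3 UMIs and 81.8% of the C4b UMIs of the class, at 603 CPM (579–629) and 64.3 CPM. The Igfbp5-led cluster of the same library was at 146 CPM for C3. The 7 genes and the other complement genes were left out of the clustering, so they did not set these clusters.

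Counted per cell, C3 was detected in fewer than 1 in 2 cultured cells and Serping1 in most. To set libraries of different depth side by side, each cell was thinned to 2000 UMIs, which left out 275, 94, 37 and 94 shallower stromal- or myoid-like cells in the cultures of 2 and 7 days and the testes of 9 and 14 dpp. C3 was then detected in 31.7% (29.7–33.7) of the 2-day cells and 34.5% (32.0–37.0) of the 7-day cells, in 0 of 1456 cells at 9 dpp, which allows a share of cells with a UMI at this depth of up to 0.206%, and in 0 of 984 at 14 dpp, which allows up to 0.305%. Without thinning the cultured shares were 42.2% and 44.1%, and the testis counts 2 of 1493 and 0 of 1078 cells. In germ-like cells, set beside these as the comparison class, C3 was detected in 1.25%, 0.492%, 0.0802% and 0.0825% of thinned cells.

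Cfb was detected in 11.8% (10.5–13.2) of the thinned 2-day cells and 0.932% (0.497–1.59) of the 7-day cells, and C4b in 2.11% (1.55–2.80) and 6.59% (5.35–8.03). C1s1 was detected in 55.3% (53.2–57.4), 55.2% (52.5–57.8), 27.5% (25.2–29.8) and 39.3% (36.3–42.5) of cells, and C1ra in 50.9%, 32.8%, 12.8% and 15.1%. C1s2 was detected more often in the testes than in the cultures, with 0.688%, 0% (0 cells, which allows up to 0.215% at this depth; 4 of 1489 cells without thinning), 4.67% (3.64–5.88) and 4.78% (3.53–6.30). Serping1 was detected in 89.4% (88.0–90.7), 80.4%, 63.9% and 72.5%, against 3.26%, 0.574%, 0.721% and 0.825% of germ-like cells.

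**Figure D4:**
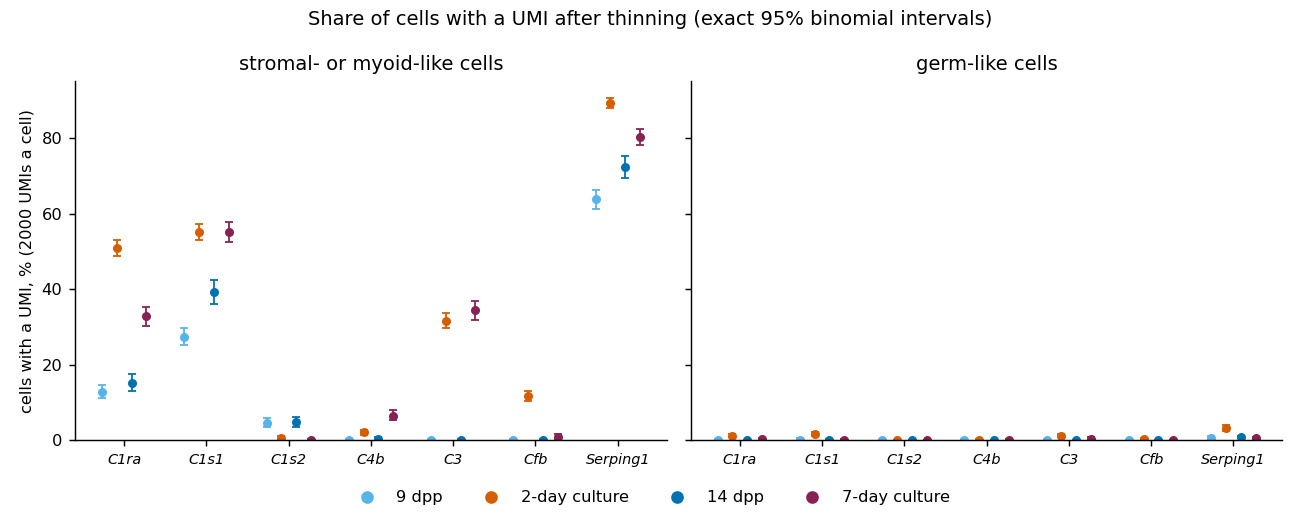
Share of cells (percent, linear axis) with at least 1 UMI of each gene after thinning every cell to 2000 UMIs, in stromal- or myoid-like and in germ-like cells of the 4 libraries, with exact 95% binomial intervals. Serping1 reaches 89.4% of stromal- or myoid-like cells in the 2-day culture, C3 31.7% and 34.5% in the cultures and 0% in the testes, and all shares in germ-like cells are at or below 3.26%.

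The number of the 7 genes seen in a thinned cell differed between culture and testis. None of them was seen in 4.54% of the 2-day and 6.45% of the 7-day cells, against 24.1% at 9 dpp and 16.1% at 14 dpp. Cells with several of the genes were more frequent in culture: 3 were seen in 28.4% and 24.4% of the cultured cells and in 5.01% and 8.03% of the testis cells, and 4 in 14.5%, 10.4%, 0.275% and 0.508%. No cell held all 7.

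Within the cultured cells some of the genes were seen more often in cells with another of them, and some were not. Among thinned 2-day cells with a C3 UMI, Cfb was seen in 20.1% against 7.92% of those without, C1ra in 63.5% against 45.0%, and C1s1 in 67.9% against 49.4%. In the 7-day culture C4b was seen in 13.5% of cells with a C3 UMI against 2.95% of those without, and C3 in 70.7% of the 92 cells with a C4b UMI against 31.9% of the rest. The same 92 cells had C1s1 in 50% against 55.6% and Cfb in 0% against 0.998%. In the 2-day culture Serping1 was seen in 89.1% of cells with a C4b UMI and 89.4% of those without. These shares describe the cells of single libraries and have no test.

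C3 was unevenly spread: after thinning, the tenth of the cells with most C3 UMIs held 54.0% of them in the 2-day culture and 56.5% in the 7-day culture, and single cells reached 7 and 15 UMIs. Cells with at least 3 C3 UMIs numbered 105 and 158. They were set beside the 1489 and 914 cells with none, as a description. In the 2-day culture their leading genes included the chitinase-like Chil1 (310 against 46.0 CPM), haptoglobin Hp (2590 against 694 CPM) and the acute-phase gene Saa3 (6.58e4 against 2.01e4 CPM), and Cfb was the 5th (210 against 49.7 CPM). In the 7-day culture Hp (896 against 39.4 CPM), Saa3 (1.02e4 against 619 CPM) and the chemokine Ccl2 (877 against 88.6 CPM) led, and C4b was the 7th (146 against 14.8 CPM). The smooth muscle gene Cnn1 was at 0 in these cells in both cultures, against 36.9 and 161 CPM, and Acta2 in the 7-day culture was at 810 against 5801 CPM.

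Sertoli-like cells, the epithelial nurse cells of the seminiferous tubule, had their own order of these genes, led by C1s1 in both cultures and by C1ra at 9 dpp. At 14 dpp C1ra and C1s1 gave 39 and 29 UMIs, and their intervals overlapped. C1s1 stood at 362 CPM (347–376) after 2 days of culture, 88.7 (81.6–96.3) after 7 days, 12.8 (11–14.9) at 9 dpp and 3.09 (2.07–4.43) at 14 dpp. The cultures exceeded the testes of the same total age by 28.2-fold (24.2–33.1) and 28.8-fold (19.8–43.3), more than in the stromal- or myoid-like cells. Here too other clusters held the class in the testis than in culture, 1 with 799 of the 825 cells at 9 dpp and another with 723 of the 813 at 14 dpp. In the 2-day culture 32.0% of all C1s1 UMIs came from Sertoli-like cells.

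C1ra in Sertoli-like cells was at 75.0 CPM (68.7–81.8), 31.1 (26.9–35.7), 17.5 (15.3–19.8) and 4.15 (2.95–5.67), or 4.30-fold (3.68–5.04) and 7.49-fold (5.29–10.8) higher. C3 reached 62.1 CPM (56.3–68.3) after 2 days and 9.37 (7.15–12.1) after 7 days, from 423 and 60 UMIs, against 1 UMI at 9 dpp and 4 at 14 dpp. Its folds were 844 (151–3.34e4) and 22.0 (8.17–83.4). Of the 60 UMIs of the 7-day culture, 26 came from the 493 cells of the main Sertoli-like cluster, where C3 was at 4.26 CPM (2.78–6.23), and the others from the few remaining cells of the class. C4b gave 82 and 17 UMIs in culture and 2 and 3 in the testes, and Cfb 11 and 1 in culture and none in the testes. C1s2 was seen mainly at 9 dpp, with 29 UMIs against 0 at 14 dpp and 2 and 0 in the cultures.

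Serping1 was low in Sertoli-like cells, at 26.4 CPM (22.7–30.6), 5.31, 1.69 and 2.34, so the ratio of inhibitor to protease differed by cell type. In the 2-day culture Sertoli-like cells held 2462 UMIs of C1s1 and 180 of Serping1, stromal- or myoid-like cells 4578 and 16320, and germ-like cells 127 and 226. The stromal markers summed to 151, 40.6, 38.0 and 23.1 CPM in the Sertoli-like cells of the 4 libraries. Like C3, C4b and Serping1 they were higher in culture than in the testis of the same total age. From 9 to 14 dpp they fell, while these genes, on few UMIs, did not. The part of stromal RNA in the C3, C4b and Serping1 levels was not tested. Of the 5 genes with enough UMIs, 5 were called higher in the 2-day pair, where 6.76% of 12000 genes were, and 4 in the 7-day pair, where 10.2% were. All 5 were called lower after 7 days of culture than after 2, where 3.71% of genes were, and C1ra and C1s1 were called lower at 14 than at 9 dpp, where 8.31% were.

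The Sertoli-like cells of the 2-day culture fell into a cluster of 717 cells shared with the 7-day culture (493 cells) and a second of 451 cells with a median of 1206 UMIs. C1s1 was at 374 CPM in the first and 250 CPM in the second, so it was high in both. The 7-day cells of the first cluster were at 90.5 CPM. After thinning, C1s1 was detected in 45.5% (41.9–49.2) of Sertoli-like cells after 2 days of culture, 18.1% (14.8–21.7) after 7 days, 2.22% at 9 dpp and 0.270% at 14 dpp, and C3 in 9.13% (7.14–11.4), 1.57%, 0% and 0.135%. The germ-like shares of C1s1 were 1.63%, 0.164%, 0.240% and 0.192%.

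Leydig-like cells, the steroid-producing cells between the tubules, numbered 80, 73, 112 and 138. A median of 5, 5, 7 and 8 of the 10 Leydig markers was seen in them, fewer in culture, where their depth was also lower. The part of this in the values below was not tested. C3 gave 49 UMIs after 2 days of culture, 78.4 CPM (58.0–104), and 69 after 7 days, 94.4 CPM (73.5–119), against 0 at 9 dpp and 3 at 14 dpp, at least 40.7-fold and 55.2-fold (18.1–274) higher. C1s1 stood at 325, 216, 162 and 210 CPM and Serping1 at 451 (400–507), 285 (247–326), 232 (208–257) and 183 (163–204) CPM, so both were also present in these cells of the testes. C1s2 gave 0 and 1 UMIs in culture and was at 21.2 CPM (14.6–29.7) and 28.5 CPM (21.2–37.6) in the testes, a level close to that of the stromal- or myoid-like cells. C4b was at 16.0, 10.9, 28.2 (20.5–37.9) and 7.99 CPM, so in the 2-day pair it was lower in culture, at 0.567-fold (0.254–1.14). The 9 dpp level came from 44 UMIs in 15 cells, which were 73.3% of all C4b UMIs of that library. Cfb gave 31 UMIs in the 2-day culture and none in either testis. Of 6 genes with enough UMIs, C3 was called higher and C1s2 lower in both pairs, where 4.8% and 11.6% of 7774 genes were called in the 2-day pair and 5.88% and 7.91% in the 7-day pair.

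Smaller classes give values only. Pericyte-like cells (37, 48, 49 and 58) had Serping1 at 641, 339, 429 and 661 CPM and C1s1 at 209, 117, 254 and 314 CPM. C1s1 was lower in both cultures than in both testes there, at 0.823-fold (0.529–1.25) and 0.373-fold (0.255–0.541) within the pairs, and Serping1 was 1.49-fold (1.14–1.95) and 0.513-fold (0.407–0.645). Their C3 came from 14 UMIs in 3 cells and 16 UMIs in 3 cells of the cultures, and 0 UMIs in the testes. In germ-like cells Serping1 was at 18.5, 4.03, 5.06 and 4.17 CPM, C1s1 at 10.4, 1.41, 1.02 and 1.07, and C3 at 6.55, 2.72, 0.723 and 0.562, each highest in the 2-day culture. Of 5 genes with enough UMIs there, 4 were called higher in the 2-day pair, where 1.45% of genes were, and C3 alone in the 7-day pair, where 0.739% were. These levels are low, and the part of free RNA in them was not tested.

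The genes whose levels were most like those of 3 members were taken over 16 sums (4 classes in 4 libraries) by Pearson's r of log2(CPM + 1); these sums share libraries, so r is a description. For C3 they were Saa3 (0.948), Tnfaip2 (0.947), Ccl2 (0.944), Serpina3n (0.939) and Dclk1 (0.938), with Cfb at 0.813 and C4b at 0.696. For C1s1 the nearest was its partner C1ra (0.977), followed by Gstt1 (0.972), Htra1 (0.969), Tmem176b (0.965) and Tap2 (0.964). For Serping1 they were the extracellular matrix genes Col1a2 (0.986), Bgn (0.984), Col3a1 (0.983) and Dcn (0.983), and Mxra8 (0.982). The 3 genes thus had different neighbours, and r of C3 with C1s1 was 0.552 and with C1s2 -0.404.

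Of 50 other complement genes listed by role, 49 were in the files and 32 had enough UMIs over the whole library. In the 2-day pair 5 were called higher (among them C1rl, C2, Colec12 and C6) and 4 lower (C1qa, C1qb, C1qc and C1rb), where 4.19% and 3.41% of all genes were. In the 7-day pair 8 were called higher (among them Colec12, Cfp, C7, C3ar1, C5ar1, Itgam and Itgb2) and 5 lower (C1qa, C1qb, C1qc, C1rb and Vsig4), where 3.6% and 2.67% of all genes were. Their median log2 difference was -0.14 and 0.15, against -0.12 and 0.00 over all genes.

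The C1q genes, which encode the recognition subunit that carries C1r and C1s, were lower in culture. C1qa was at 0.779, 10.7, 21.4 and 37.2 CPM (2-day and 7-day culture, then 9 and 14 dpp), 27.5-fold and 3.47-fold lower in culture. C1qb was 36.3-fold and 2.94-fold lower and C1qc 85.8-fold and 4.34-fold lower. These are macrophage genes, and macrophage-like cells numbered 10, 16, 29 and 48. The 10 macrophage markers summed to 31.8, 307, 147 and 146 CPM over the library, lowest in the 2-day culture and highest in the 7-day culture, where Lyz2 alone gave 204 CPM. In the 7-day culture Lyz2, Tyrobp, Laptm5, Adgre1 and Ctss were above both testes and Fcer1g lay between them. Csf1r, Mrc1, Cx3cr1 and Aif1 were lower in both cultures than in both testes, Mrc1 at 0.779, 0.754, 7.03 and 9.80 CPM. Within the macrophage-like cells C1qa was at 275 CPM (176–409), 628 (561–702), 4136 and 5486, and C1qc at 80.2, 336, 3580 and 3907. The testis levels were also the higher ones there, in few cells. Vsig4, a C3b receptor of tissue macrophages, was at 0, 2.01, 93.2 and 172 CPM in them, the testis levels resting on 4 and 6 cells, while the anaphylatoxin receptor gene C3ar1 was at 688, 564, 273 and 304 CPM and the integrin gene Itgb2 at 275, 244, 72.5 and 96.4 CPM. Macrophage-like cells are below the 50 cells set for a comparison, so the values are given as they stand.

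**Figure D5:**
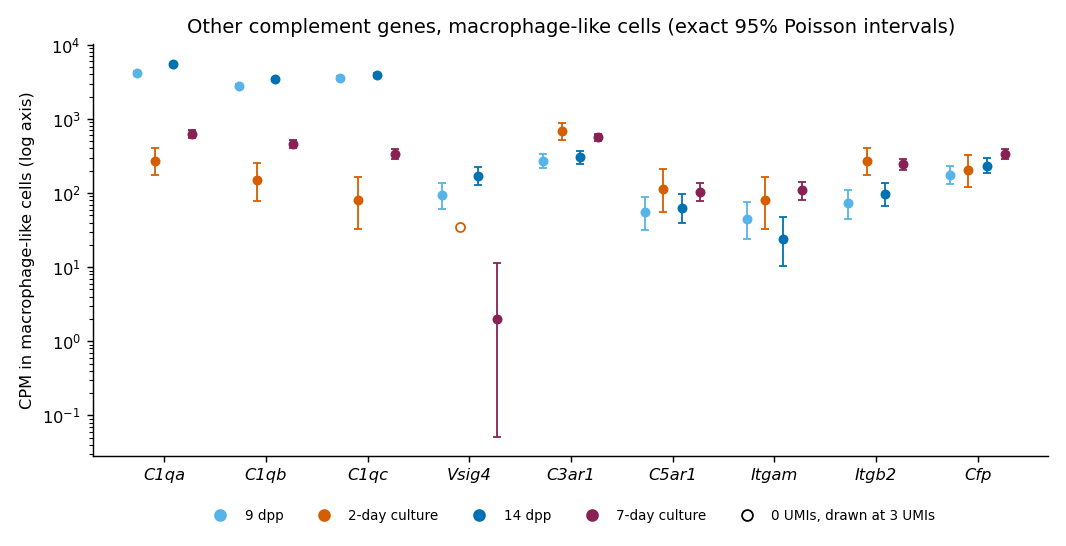
CPM (log axis) of other complement genes in UMIs summed over macrophage-like cells of the 4 libraries (10 to 48 cells), with exact 95% Poisson intervals; open circles mark 0 UMIs and are drawn at 3 UMIs. C1qa sits at 275 and 628 CPM in the cultures and at 4136 and 5486 CPM in the testes, and C3ar1 at 688 and 564 against 273 and 304 CPM; no library here reaches 50 such cells.

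In the stromal- or myoid-like cells 16 of the other complement genes had enough UMIs. In the 2-day pair 4 were called higher and 4 lower, where 5.93% and 7.09% of all genes were. In the 7-day pair 4 were called higher and 5 lower, where 5.19% and 4.63% were. Of 5 membrane regulators among them, Cd59a and Cd59b were called lower in both pairs and 3 stayed under the threshold. Cd59a, which blocks the terminal pore, was at 52.8, 63.5, 149 and 144 CPM there. C1rb, a relative of C1ra, was lower in culture as C1s2 was: 1.40, 0.242, 4.78 and 2.72 CPM over the library, 3.40-fold (2.48–4.78) and 11.2-fold (5.76–25.0) lower in culture. In the stromal- or myoid-like cells it was 5.40-fold (3.77–7.92) and 70.9-fold (19.1–594) lower, the latter from 2 UMIs in the culture; 30.5% of the windows in the last 500 bases of C1rb are shared with C1ra, so its counts are uncertain. C2, the other substrate of C1s, was at 66.8, 29.6, 20 and 22.8 CPM, higher by 3.34-fold and 1.30-fold over the library. Within the stromal- or myoid-like cells it was 1.79-fold higher in the 2-day pair and 1.52-fold lower in the 7-day pair. In Acta2-led and Dcn-led cells C2 was 5.43-fold and 1.25-fold higher in the 2-day pair, and 1.59-fold and 2.16-fold lower in the 7-day pair. The scavenger collectin gene Colec12 was at 22.2, 21.7, 10.3 and 5.27 CPM, 2.15-fold and 4.12-fold higher in culture. Of the genes with most UMIs in their roles, C2 was called higher in the 2-day pair, and Cfp (1.56, 7.46, 2.80 and 2.49 CPM) and C3ar1 (1.93, 9.97, 1.41 and 2.03 CPM) in the 7-day pair. Clu (2104, 1063, 1970 and 2005 CPM), Cr1l (57.7, 44.2, 44.5 and 38.0 CPM) and C8g (2.56, 3.45, 4.01 and 4.27 CPM), stayed under the threshold in both pairs.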

How the data were processed

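Testis cells of 4 libraries, 1 per group, were profiled with Chromium Single Cell 3′ v2 kits on an Illumina HiSeq X instrument, per the labels' protocols, whose library text also speaks of female gonads. The values are whole UMI counts per gene and cell barcode, deposited by the authors, which come from Cell Ranger 3.0.2 (per the file headers) and the mm10 build (per the submitters' processing notes); the gene annotation and the cell-calling settings are not given in the sources used here. The deposited matrices held 7710, 5149, 5465 and 6527 barcodes (2-day culture, 7-day culture, 9 dpp, 14 dpp) and 31053 gene identifiers. Identifiers that shared a symbol (35 symbols) were summed.

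Barcodes under 500 genes or over 20% mitochondrial UMIs were dropped, and Scrublet in scanpy 1.11.5 (expected rate 6%) marked 253, 93, 143 and 143 doublets, which were removed. Cell classes were set per cell from UMIs of marker genes: at least 3 markers of a class, and a lead of 0.2 in the share of its markers over the next class, except that 4 markers of the Leydig or pericyte lists outranked the stromal and myoid lists. Cells with a smaller lead were called mixed (112, 51, 86 and 311) and those with too few markers (102, 38, 12 and 15) were left unnamed; neither enters a class. Leiden clusters (leidenalg 0.10.2, resolution 1, 30 principal components, 20 neighbours, 2000 variable genes) were made without complement genes.

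UMIs were summed per library or class and scaled to CPM by total UMIs. Exact 95% Poisson, binomial and conditional binomial intervals came from scipy 1.17.1. A gene was called at a difference of 1 in log2(CPM + 1) among genes whose summed UMIs reached 50. With 1 library a group there is no test between groups. The fold calling was tried on simulated counts that held counting error only, with no spread between animals or cultures. Genes of low level were given no change in them, so calls of such genes were not covered. Against 0 UMIs, a fold is a lower bound from a floor of 3 UMIs in that class and library. Genes were called only in classes of at least 50 cells in each library; smaller classes are given as values.

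The 7 genes, the gene lists and the markers were chosen with earlier results of these data known, and the class rule and the division by Acta2 and Dcn after the data were seen. All 7 genes are named over the whole library and in stromal- or myoid-like and Sertoli-like cells, and some of them in the other classes. Of the other complement genes the rule names those called in the same direction in both pairs over the whole library, the one with most UMIs in each role, and C1qa, C1qb and C1qc. Others named, in counts of calls, in macrophage-like cells and among the membrane regulators, were chosen after their values were seen. For gene neighbours the 5 highest r are named. A gene that this rule names is not reported here.

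Alternatives tried were other constants added to CPM, no UMI minimum, TMM factors (edgeR 4.0.16), a stricter cell filter, doublets kept, cells weighted equally, thinning, classes from clusters, a stricter marker minimum and subtraction of the germ-like level as free RNA.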

Additional observations from a re-analysis of the deposited data

How the results depend on the processing

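With each other setting the counts of complement genes called higher in culture were no more than 1.5 times apart from those reported. Over the whole library they were 6 and 6, except 5 and 4 with 10 added to CPM. In stromal- or myoid-like cells they were 6 and 4, except 5 and 3 with 10 added to CPM. In alternatives chosen after seeing the data they were 5 and 3 in Acta2-led cells alone and 5 and 3 in Dcn-led cells alone. C4b had too few UMIs to be counted in Acta2-led cells, where its log2 differences were 1.38 and 2.09. Of 292 log2 differences recomputed, 197 moved by less than their interval and 95 by more. The direction was kept in 291. The exception was Serping1 in the 7-day pair, at 0.37 in all stromal- or myoid-like cells and -0.09 in Dcn-led cells. Part of this was fixed in advance. Another constant added to CPM cannot turn a direction, and leaving out the UMI minimum changed none of the values. In Dcn-led cells C1s1 in the 2-day pair went from 1.25 to 0.85 and C1ra in the 7-day pair from 1.39 to 0.91, both under the threshold; the causes were not tested. With 10 added to CPM, C4b lost its call over the whole library (0.60 and 0.84) and in the 2-day pair of stromal- or myoid-like cells (0.93), Cfb in the 7-day pair (0.19 and 0.73) and C1s2 over the whole library (-0.44 and -0.42). The constant added sets the log2 size of genes near 0 in the testis: C3 over the whole library ranged from 3.40 to 7.55 in the 2-day pair and Cfb from 1.94 to 7.73. Serping1 over the whole library ranged from 1.87 to 2.60 and from 1.08 to 1.35. TMM factors moved the median of all genes in the 2-day pair from -0.12 to -0.01.

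C3, Cfb and C4b rest on 1 to 60 UMIs in a testis library, although these libraries are the deeper ones, so their folds have wide intervals. No paired analysis was possible because each group has 1 library and no replicate numbers, and no library was left out in turn for the same reason.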
